A study of Mus musculus with 8 samples.

Results

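Immediate early and activation-induced genes were examined in bulk RNA-seq of T follicular helper (Tfh) cells of mice. These CD4+ cells sit in B cell follicles and drive germinal centre reactions. The set has 46 genes, chosen by name, among 16735 genes that the tables of both experiments hold. All 46 were found, and all 46 were among the 14418 genes that passed the filter on low counts. The cells came from K/BxN mice, which carry a transgenic T cell receptor and develop spontaneous arthritis, and the mice also bore a Th17 fate-mapping reporter that labels cells with a Th17 past by the fluorescent protein ZsGreen. All 4 groups share this background and the same gate, CD4+ TCRβ+ CXCR5+ PD-1+ cells without CD25. The groups were ZsGreen− cells of Peyer's patch (lymphoid tissue of the gut wall), ZsGreen+ cells of Peyer's patch, ZsGreen− cells of spleen and ZsGreen+ cells of spleen. Each had 2 libraries, replicate 1 from experiment 1 and replicate 2 from experiment 2. The sources used here do not give the promoter behind the fate-mapping recombinase, the age of the mice or any pooling of animals. The labels do not tie replicates to separate animals, and p-values therefore reflect library-to-library spread that may be technical.

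Immediate early genes are transcribed within minutes of a signal, without new protein synthesis. In T cells the T cell receptor acts through the MAP kinase, calcium and NF-kB pathways, which switch on AP-1 subunits, EGR and NR4A transcription factors. They also switch on inhibitors of the same pathways, such as the DUSP phosphatases, Sprouty proteins, IkB proteins and A20. Their mRNAs are short-lived, and many of them can also be induced by tissue dissociation and cell sorting.

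The libraries held 10009823 to 15323743 estimated counts. Levels are TMM-scaled CPM, and fold changes are log2 values of an edgeR model with a term for the experiment. T cell genes were present in every library, with Cd4 between 673 and 1356 CPM and Cd3e between 354 and 2171 CPM. The library labelled spleen ZsGreen− replicate 2 stood apart for these genes: it had the highest level of all 8 libraries for 27 of the 46 members, against 10.6% of all genes tested.

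The members together took 0.748% to 0.947% of the counts in the 4 Peyer's patch libraries. They took 1.18% and 1.5% in spleen ZsGreen− and ZsGreen+ cells of experiment 1, and 3.95% and 2.62% in those of experiment 2. Every spleen library was therefore above every Peyer's patch library, and the spleen libraries of experiment 2 were the highest. Per kilobase of exon and averaged over all 8 libraries, the most abundant members were Junb (1512 CPM per kb), Jund (1023), Nfkbia (920), Fos (508) and Ier2 (418). The least abundant were Spry2 (0.166), Fosl1 (0.261) and Fosl2 (0.879). The genes were short, with a median span of 5608 bases against 17045 over all genes tested. In bulk RNA, fewer cells that express a gene and less of its RNA in each cell cannot be told apart.

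**Figure D1:**
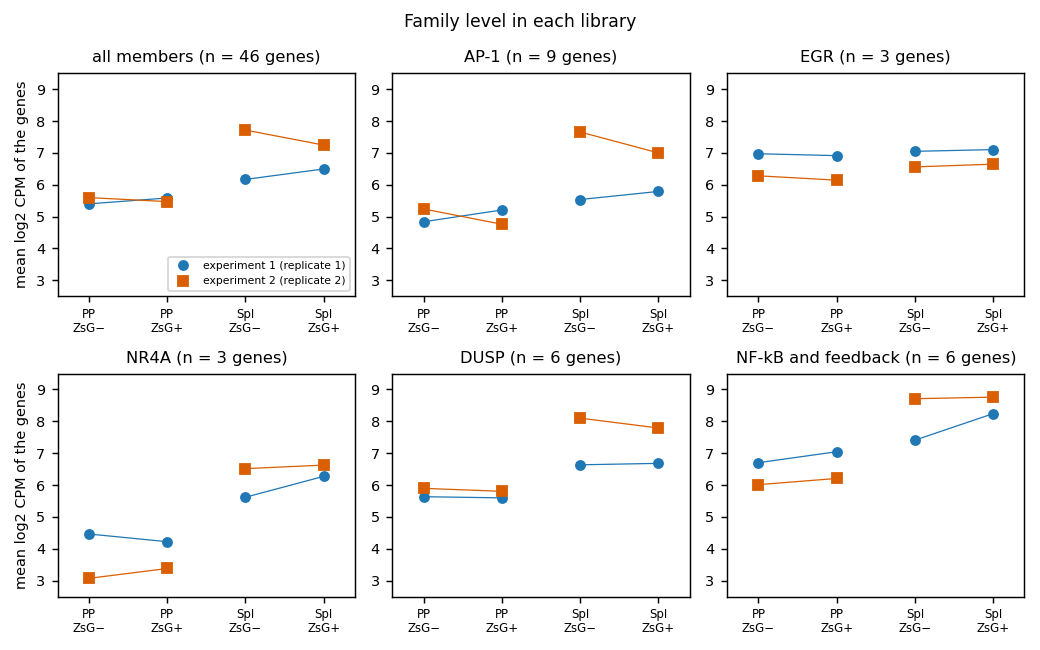
Mean log2 CPM of all 46 members and of 5 families (y axis) in each library (x axis, tissue and sort), with circles for experiment 1 and squares for experiment 2. The level of all members lies between 5.40 and 5.60 in the Peyer's patch libraries and between 6.17 and 7.72 in the spleen libraries, and the tissues lie closest together in the EGR panel.

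The first comparison asked how these genes differed between Peyer's patch and spleen within each sort. Most were lower in Peyer's patch. In ZsGreen− cells the fitted value was negative for 44 of 46 members, with a median log2 fold change of -1.43 against 0.00 over all genes. By edgeR's test 7 members fell there and none rose, against 3.68% of all genes lower, 1.82% higher and 5.49% in either direction. In ZsGreen+ cells the value was negative for 41 of 46, with a median of -1.22 against 0.01, and 10 members fell while Jdp2 rose (all genes 7.17% lower, 5.51% higher, 12.7% in either direction). An unadjusted p under 0.05 was reached by 29 members in ZsGreen− cells (17.7% of all genes) and 23 in ZsGreen+ cells (26.4%). Atf3 stays the lowest member when it is placed at its bound given below, so these medians do not depend on its fitted value. Within experiments, 34 members were lower in Peyer's patch in all 4 comparisons (both sorts, both experiments) against 18.4% of all genes, and Jdp2 and Egr2 were higher in all 4 (18.8% of all genes). All Peyer's patch libraries lay below all spleen libraries for 11 members (2.8% of all genes), namely Fosl2, Atf3, Nr4a1, Nr4a2, Dusp1, Dusp4, Dusp5, Klf6, Nfkbiz, Tnfaip3 and Spry1. The reverse held for Jdp2 alone of the 46 (2.77% of all genes).

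These calls rest on few libraries. The number of calls changed with the library left out. The members' median in ZsGreen− cells then lay between -2.27 (without spleen ZsGreen− replicate 1) and -0.78 (without replicate 2 of that group). In ZsGreen+ cells it lay between -1.72 and -0.87 (without Peyer's patch ZsGreen+ replicates 1 and 2). Medians over all genes in these fits lay between -0.03 and 0.03. With no term for the experiment, 0 members and 0 of all genes passed in either sort. DESeq2 with that term called 21 members in ZsGreen− (Jdp2 higher, the others lower) and 19 in ZsGreen+ cells. Over all 14418 genes it called 1085 and 2099.

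**Figure D2:**
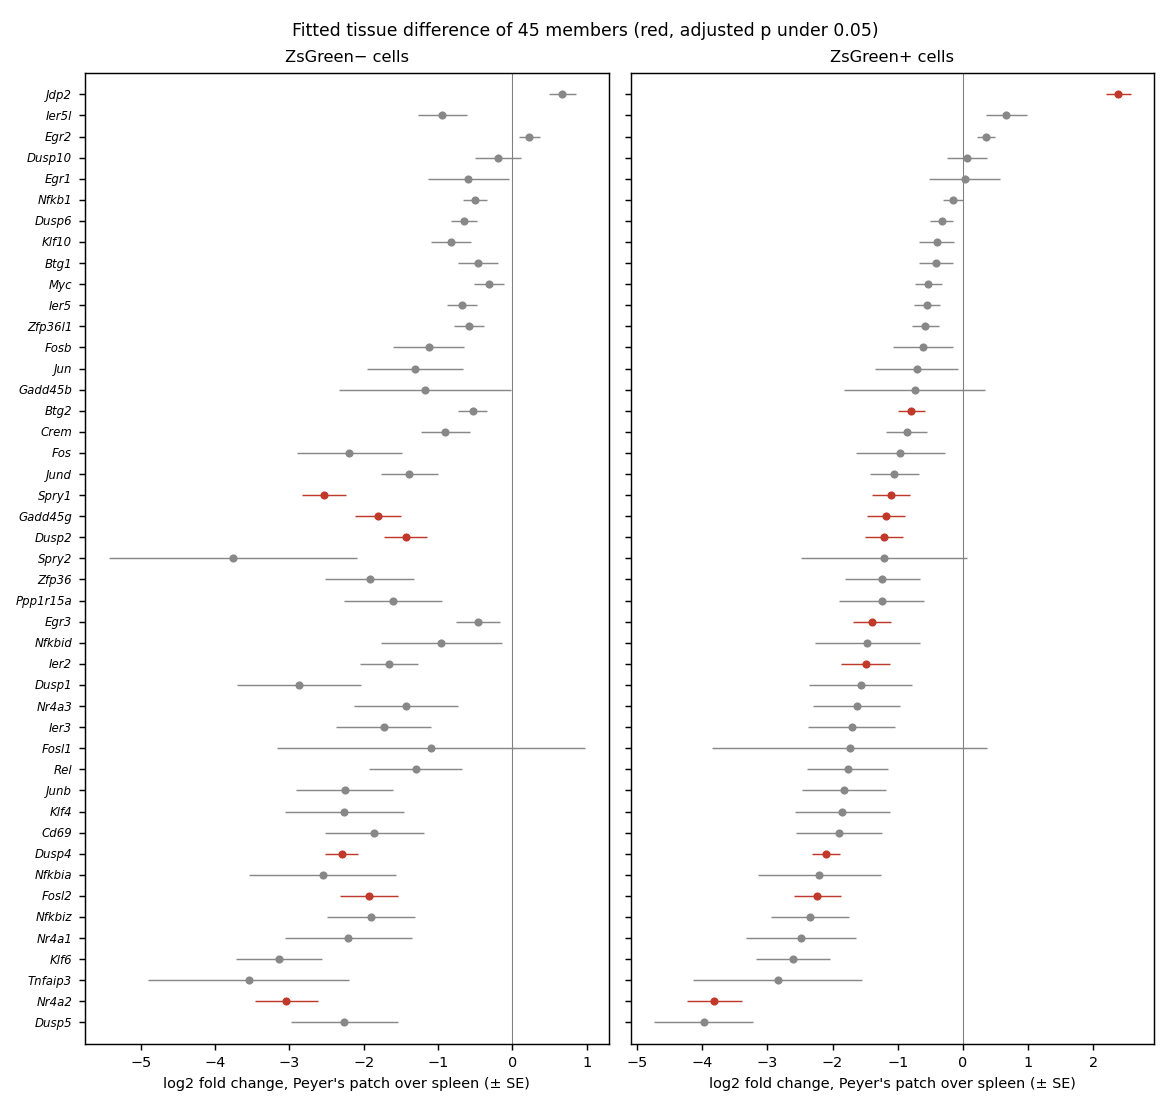
Fitted log2 fold change of Peyer's patch over spleen with its SE (x axis) for every member except Atf3 (y axis), in ZsGreen− cells (left) and ZsGreen+ cells (right), with red for an adjusted p under 0.05. Most points lie left of 0, and Jdp2 lies at 0.67 and 2.38.

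Promoters are shown for the members called lower in Peyer's patch in both sorts, where RefSeq's promoter table (build GRCm38.p6) holds an entry, and for Jdp2, which went the other way. Of the 46 members, 35 matched an entry, with 44 start sites in all. Jdp2 has several starts in the table, and the one with a match is shown. Each line gives the 250 bases before the start, 5′ to 3′ on the gene's strand. Capitals mark matches to the motifs searched: the CRE (TGACGTCA), the AP-1 site (TGANTCA), the EGR site (GCGNGGGCG), the CArG box and the kB site on both strands, and the TATA box (TATAAA) on the sense strand. The lines of Atf3 and Spry1 have no match.
Fosl2, chr5:32136222-32136471, plus strand: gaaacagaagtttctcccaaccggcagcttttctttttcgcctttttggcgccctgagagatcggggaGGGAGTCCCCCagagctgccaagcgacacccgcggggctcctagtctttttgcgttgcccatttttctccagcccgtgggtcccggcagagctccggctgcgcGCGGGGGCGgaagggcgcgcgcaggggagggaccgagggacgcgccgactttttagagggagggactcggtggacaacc
Atf3, chr1:191183334-191183583, minus strand: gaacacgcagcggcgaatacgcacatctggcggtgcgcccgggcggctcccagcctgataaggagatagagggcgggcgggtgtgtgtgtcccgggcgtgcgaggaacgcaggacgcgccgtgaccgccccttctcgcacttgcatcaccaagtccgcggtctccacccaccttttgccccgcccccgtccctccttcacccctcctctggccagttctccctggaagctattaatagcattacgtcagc
Nr4a2, chr2:57124004-57124253, minus strand: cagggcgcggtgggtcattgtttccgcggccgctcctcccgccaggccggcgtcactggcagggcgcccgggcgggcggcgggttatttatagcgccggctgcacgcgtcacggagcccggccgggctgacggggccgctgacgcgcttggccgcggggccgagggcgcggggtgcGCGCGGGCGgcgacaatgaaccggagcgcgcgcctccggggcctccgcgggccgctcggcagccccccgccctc
Dusp2, chr2:127335909-127336158, plus strand: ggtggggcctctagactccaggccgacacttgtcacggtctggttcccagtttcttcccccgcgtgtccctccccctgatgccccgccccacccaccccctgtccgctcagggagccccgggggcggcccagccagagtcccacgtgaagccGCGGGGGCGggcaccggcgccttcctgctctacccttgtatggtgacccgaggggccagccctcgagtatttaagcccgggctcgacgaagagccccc
Spry1, chr3:37639697-37639946, plus strand: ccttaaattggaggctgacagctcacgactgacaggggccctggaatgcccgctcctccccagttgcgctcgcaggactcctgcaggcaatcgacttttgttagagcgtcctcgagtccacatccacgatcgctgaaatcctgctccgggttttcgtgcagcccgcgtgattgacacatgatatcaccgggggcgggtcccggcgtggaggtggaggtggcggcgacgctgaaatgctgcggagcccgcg
Gadd45g, chr13:51846425-51846674, plus strand: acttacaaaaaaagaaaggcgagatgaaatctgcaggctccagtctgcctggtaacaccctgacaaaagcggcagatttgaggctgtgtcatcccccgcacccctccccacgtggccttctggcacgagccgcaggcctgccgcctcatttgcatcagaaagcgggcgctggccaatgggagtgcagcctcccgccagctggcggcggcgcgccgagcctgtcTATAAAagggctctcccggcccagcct
Jdp2, chr12:85599768-85600017, plus strand: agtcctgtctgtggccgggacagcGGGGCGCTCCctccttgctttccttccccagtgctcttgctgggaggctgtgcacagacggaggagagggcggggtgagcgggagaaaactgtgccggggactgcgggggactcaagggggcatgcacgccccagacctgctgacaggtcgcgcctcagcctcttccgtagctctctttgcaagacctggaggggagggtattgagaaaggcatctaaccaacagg

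Counted over windows of 300 bases, from 250 before to 50 after the start, a kB site stood in 25% of the members' promoters against 8.46% of all 32851 promoters. Those of Fosl2 and Jdp2 shown above hold one, as do those of Nfkbia and Tnfaip3, which encode inhibitors of NF-kB. An EGR site stood in 20.5% against 5.55%, among them those of Fosl2, Nr4a2 and Dusp2 shown above. The CArG box, bound by serum response factor, stood in 13.6% against 1.63%, but 4 of these 6 start sites belong to Egr2 and the others to Dusp5 and Zfp36. The CRE stood in 9.09% against 1.79%, in Dusp1, Btg2, Nfkbid and Ppp1r15a, and the TATA box in 18.2% against 8.32%, among them that of Gadd45g. The AP-1 site stood in 4.55% against 7.81%, in Tnfaip3 and Zfp36l1. No matches of different motifs overlapped, and a match describes letters in a window, not a bound site.

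AP-1 is a dimer of FOS, JUN and related leucine zipper proteins, and 8 of its 9 members had a negative tissue value in each sort. Values are given below as experiment 1 and experiment 2. Fos had 155 and 743 CPM in Peyer's patch ZsGreen− cells, 298 and 560 in Peyer's patch ZsGreen+, 381 and 5022 in spleen ZsGreen− and 394 and 2012 in spleen ZsGreen+. Its groups overlapped across experiments, and spleen ZsGreen− of experiment 2 was far above the rest. In ZsGreen− cells DESeq2 called Fos and Junb lower (adjusted p = 0.0476 and 0.0427), which edgeR did not. The tissue value of Fos was -2.19 ± 0.70 (SE, adjusted p = 0.219) in ZsGreen− and -0.96 ± 0.68 (adjusted p = 0.459) in ZsGreen+ cells. Junb, the most abundant member per kilobase, had 606 and 1606 CPM, then 759 and 1107 in Peyer's patch (ZsGreen− then ZsGreen+), and 1360 and 13171, then 1682 and 7540 in spleen. Each spleen value of Junb was above its partner of the same experiment and sort, yet the fit gave -2.26 ± 0.65 (adjusted p = 0.139) and -1.83 ± 0.64 (adjusted p = 0.135).

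Jun and Jund, the other JUN proteins, and Fosb had the same order within each experiment. Jun had 200, 631, 311 and 440 CPM in Peyer's patch (ZsGreen− of experiments 1 and 2, then ZsGreen+ of experiments 1 and 2) and 328, 1970, 527 and 672 in spleen. Its tissue values were -1.31 ± 0.65 (adjusted p = 0.426) and -0.71 ± 0.64 (adjusted p = 0.565). Jund had 775, 1178, 744 and 1009 CPM in Peyer's patch and 1113, 4945, 1306 and 2584 in spleen, with -1.39 ± 0.38 (adjusted p = 0.0802) and -1.05 ± 0.37 (adjusted p = 0.11). Unlike Jun and Jund, Fosb was higher in experiment 1 in every group. It had 115, 40.1, 223 and 31.2 CPM in Peyer's patch and 202, 103, 264 and 71.9 in spleen, with -1.13 ± 0.48 (adjusted p = 0.34) and -0.62 ± 0.46 (adjusted p = 0.488).

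Fosl2, which encodes the FOS-related protein FRA-2 (mm39 chr5:32293145-32315186), fell in both sorts. It had 4.52, 1.11, 7.03 and 1.2 CPM in Peyer's patch and 12.6, 7.05, 24.5 and 10 in spleen, so the tissues did not overlap. Its values were -1.93 ± 0.39 (adjusted p = 0.0137) in ZsGreen− and -2.23 ± 0.36 (adjusted p = 0.00174) in ZsGreen+ cells. The call in ZsGreen− cells was lost without either Peyer's patch ZsGreen− library (highest adjusted p 0.136), and that in ZsGreen+ cells passed with any library left out.

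Atf3, a stress-induced leucine zipper repressor (chr1:190902493-190950236), was almost undetected in Peyer's patch. It had 0.109, 0.111, 0 and 0 CPM there and 0.749, 30.7, 1.97 and 26.6 in spleen. In ZsGreen+ cells this was 0 counts against 347, at least 118-fold lower in Peyer's patch (floor of 3 counts over the group, adjusted p = 0.00147). In ZsGreen− cells it was 3 counts against 214, a ratio of spleen to Peyer's patch of 77.5 (95% counting interval 26.2 to 379, adjusted p = 0.00841), and this call was lost without Peyer's patch ZsGreen− replicate 2 (adjusted p = 0.172). Most of those spleen counts came from replicate 2, without which the fitted value, which depends on the prior count, moved from -6.13 to -4.59 (adjusted p = 0.0332). Counting intervals and floors cover counting error only.

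Jdp2, which encodes an AP-1 partner that represses transcription (chr12:85645801-85686652), went the other way. It had 26.3, 38.3, 29.9 and 34.5 CPM in Peyer's patch and 16.3, 24.5, 5.38 and 7.11 in spleen. The spleen ZsGreen+ libraries were the 2 lowest of the 8. In ZsGreen+ cells Jdp2 rose by 2.38 ± 0.19 (adjusted p = 2.27e-05) with any library left out, and in ZsGreen− cells it had 0.67 ± 0.18 (adjusted p = 0.0511). The latter passed with DESeq2 (adjusted p = 0.0296), with no filter on low counts (0.0489), with a stricter filter (0.0467) and without Peyer's patch ZsGreen+ replicate 2 (0.0453). Fosl1, the remaining AP-1 gene, had at most 2.31 CPM and overlaps Ccdc85b on the other strand. Ccdc85b had a mean count of 521 against 5.5 for Fosl1. The labels give poly A enrichment or a non-directional preparation, without saying which library had which. The counts of Fosl1 are therefore uncertain.

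**Figure D3:**
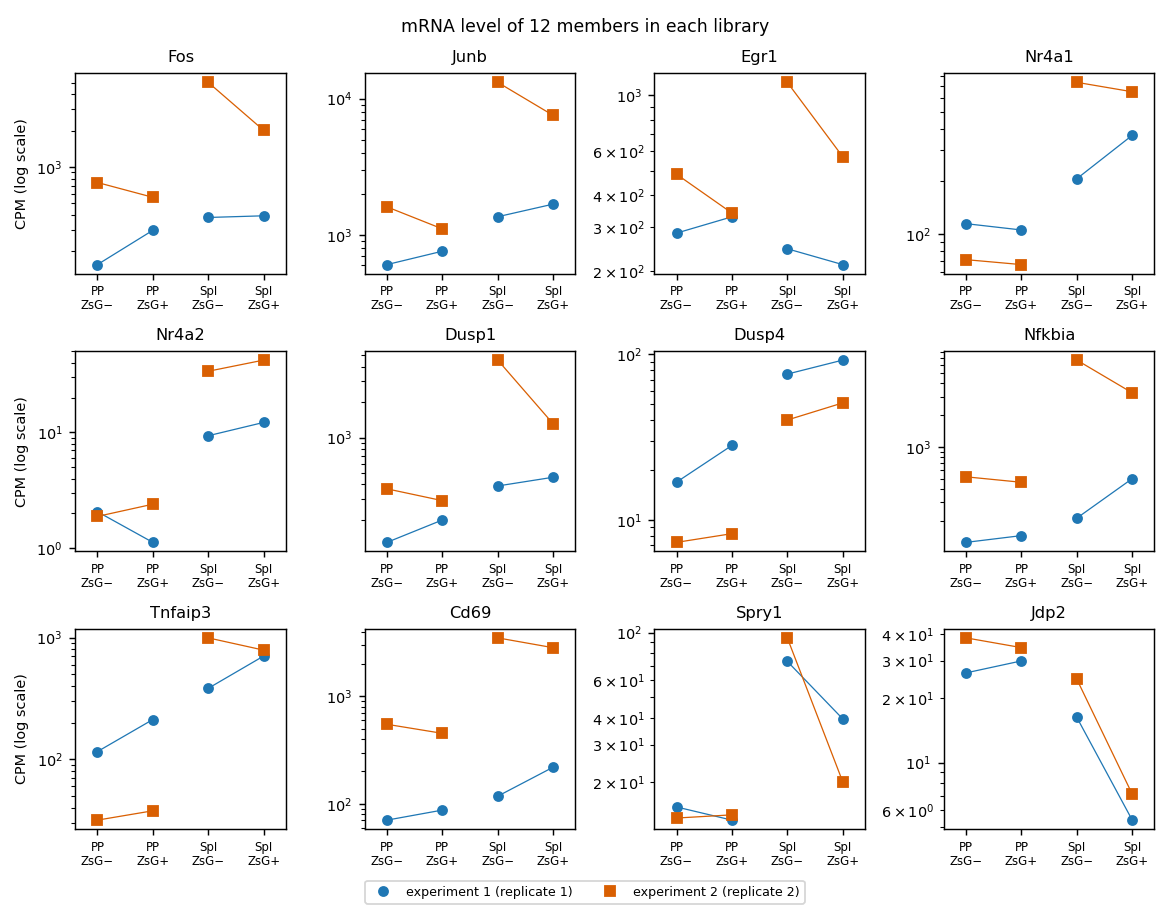
Level in CPM (y axis, log scale) of 12 members in each library (x axis, tissue and sort), with circles for experiment 1, squares for experiment 2 and lines joining the sorts of one tissue and experiment. Spleen lies above Peyer's patch for most genes, by more in experiment 2, and Jdp2 is lowest in spleen ZsGreen+ cells at 5.38 and 7.11 CPM.

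The EGR genes encode zinc finger factors downstream of MAP kinase and calcium signals, and 1 of the 3 passed in 1 sort. Their median tissue value was -0.46 in ZsGreen− and 0.03 in ZsGreen+ cells. Egr1 had 283, 486, 329 and 340 CPM in Peyer's patch and 245, 1126, 212 and 570 in spleen. Peyer's patch was the higher tissue in experiment 1 and spleen in experiment 2, and the fitted values were -0.59 ± 0.55 (adjusted p = 0.694) and 0.03 ± 0.55 (adjusted p = 0.982). Egr2, which restrains T cell activation, was even across libraries, with 107, 124, 95.1 and 110 CPM in Peyer's patch and 86.1, 113, 63.9 and 99.7 in spleen. It was slightly higher in Peyer's patch in every pairing, with 0.23 ± 0.14 (adjusted p = 0.466) and 0.35 ± 0.14 (adjusted p = 0.134). Egr3 was far lower in experiment 2 in all groups, with 64.9, 7.64, 55.8 and 9.3 CPM in Peyer's patch and 109, 6.44, 191 and 17.5 in spleen. It fell in Peyer's patch of ZsGreen+ cells, -1.40 ± 0.29 (adjusted p = 0.0185), and had -0.46 ± 0.30 (adjusted p = 0.507) in ZsGreen− cells. The Egr3 call was lost without either Peyer's patch ZsGreen− library, Peyer's patch ZsGreen+ replicate 1 or either spleen ZsGreen+ library (highest adjusted p 0.143).

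The NR4A genes encode orphan nuclear receptors induced by the T cell receptor, and all 3 had negative tissue values in both sorts. Nr4a2 (chr2:56996842-57014015) fell in both, with 2.07, 1.88, 1.12 and 2.4 CPM in Peyer's patch and 9.36, 33.7, 12.2 and 42.1 in spleen. The tissues did not overlap, and the values of -3.04 ± 0.42 (adjusted p = 0.00297) and -3.82 ± 0.42 (adjusted p = 0.000415) passed with any library left out. Nr4a1, which encodes NUR77, had 114, 71, 105 and 66.5 CPM in Peyer's patch and 207, 736, 366 and 650 in spleen. Its tissues did not overlap either, but the spread between experiments left it at -2.21 ± 0.86 (adjusted p = 0.335) and -2.48 ± 0.85 (adjusted p = 0.19). Nr4a3 had 42.3, 3.99, 48.7 and 6.53 CPM in Peyer's patch and 60.1, 30.5, 102 and 35 in spleen, with -1.43 ± 0.70 (adjusted p = 0.432) and -1.63 ± 0.67 (adjusted p = 0.242). DESeq2 also called Nr4a1 lower in ZsGreen+ cells (adjusted p = 0.0151).

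DUSP proteins are phosphatases that switch off MAP kinases. By edgeR's test Dusp4 and Dusp2 of the 6 genes fell in both sorts and the others did not pass. DESeq2 also called Dusp1 (adjusted p = 0.00893), Dusp5 (0.0251) and Dusp6 (0.0455) lower in ZsGreen− cells and Dusp5 (1.05e-06) in ZsGreen+ cells. Dusp4 (chr8:35274451-35287048) had 16.9, 7.31, 28.1 and 8.25 CPM in Peyer's patch and 75.7, 40, 92 and 50.7 in spleen. It was higher in experiment 1 in every group, and its tissues did not overlap. Its values of -2.30 ± 0.22 (adjusted p = 0.00014) and -2.10 ± 0.21 (adjusted p = 8.91e-05) passed with any library left out. Dusp2, a nuclear phosphatase of activated lymphocytes, had 109, 218, 73.9 and 186 CPM in Peyer's patch and 197, 897, 131 and 553 in spleen. It fell by 1.44 ± 0.29 on the log2 scale in ZsGreen− cells (adjusted p = 0.0323) and by 1.21 ± 0.29 in ZsGreen+ cells (adjusted p = 0.0335). The first call was lost without replicate 2 of Peyer's patch or spleen ZsGreen− (highest adjusted p 0.11), the second without either Peyer's patch ZsGreen+ library or spleen ZsGreen+ replicate 2 (highest adjusted p 0.188).

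Dusp1, which acts mainly on p38 and JNK, had 129, 367, 200 and 291 CPM in Peyer's patch and 388, 4535, 460 and 1307 in spleen. All spleen libraries lay above all Peyer's patch libraries, yet the values of -2.87 ± 0.84 (adjusted p = 0.205) and -1.57 ± 0.79 (adjusted p = 0.316) did not pass. Dusp5, an ERK phosphatase named here after its values were seen, had 16.5, 10.2, 8.88 and 11.6 CPM in Peyer's patch and 44.4, 114, 83.1 and 281 in spleen. Its tissues did not overlap, and its values were -2.26 ± 0.72 (adjusted p = 0.253) in ZsGreen− and -3.98 ± 0.75 (adjusted p = 0.0607) in ZsGreen+ cells. Dusp6 and Dusp10 had values between -0.65 and 0.06.

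Among the other immediate early and MAP kinase feedback genes, Spry1 and Ier2 passed edgeR's test. DESeq2 also called Ier2 (adjusted p = 0.0155) and Ier5 (0.0452) lower in ZsGreen− cells. Spry1 (chr3:37694096-37698747) encodes Sprouty1, an inhibitor of receptor signalling to ERK. It was nearly constant in Peyer's patch, with 15.3, 13.6, 13.3 and 14.1 CPM, and had 73.4, 94.4, 39.6 and 20.1 in spleen. It fell by 2.54 ± 0.30 in ZsGreen− cells (adjusted p = 0.00223) and by 1.11 ± 0.29 in ZsGreen+ cells (adjusted p = 0.0425). The first call was lost without either Peyer's patch ZsGreen− library (highest adjusted p 0.0697), the second also without either Peyer's patch ZsGreen+ library or spleen ZsGreen+ replicate 1 (highest adjusted p 0.325). Ier2, an immediate early nuclear protein, had 148, 440, 112 and 364 CPM in Peyer's patch and 255, 2314, 278 and 1182 in spleen. Spleen was the higher tissue within each experiment. Ier2 fell by 1.49 ± 0.38 in ZsGreen+ cells (adjusted p = 0.0477) and had -1.66 ± 0.38 (adjusted p = 0.0618) in ZsGreen− cells. Its call was lost without any 1 of the 4 ZsGreen+ libraries, with the authors' library factors or with no filter on low counts (highest adjusted p 0.21 over libraries). Ier3, Ier5, Ier5l and Spry2 did not pass edgeR's test, and Ier5l had 0.66 ± 0.32 in ZsGreen+ cells against -0.94 ± 0.33 in ZsGreen− cells. Spry2 had at most 0.958 CPM.

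Of the growth and Kruppel-like factors none passed edgeR's test. Yet 3 of 4 in ZsGreen− and 2 of 4 in ZsGreen+ cells had an unadjusted p under 0.05 (17.7% and 26.4% of all genes). DESeq2 called Klf4 (adjusted p = 0.00329), Klf6 (1.11e-05) and Klf10 (0.0457) lower in ZsGreen− cells, and Klf4 (0.0111) and Klf6 (0.000208) in ZsGreen+ cells. Myc, which drives growth and division after activation, had 18.2, 48.6, 12.5 and 31.9 CPM in Peyer's patch and 29.6, 45.5, 21.7 and 39.1 in spleen. It overlapped between tissues, with -0.31 ± 0.20 (adjusted p = 0.491) and -0.53 ± 0.20 (adjusted p = 0.117). Klf6, named after its values were seen, had 43.1, 95.7, 68.5 and 85.7 CPM in Peyer's patch and 224, 1251, 296 and 827 in spleen. The tissues of Klf6 did not overlap, at -3.14 ± 0.58 (adjusted p = 0.0679) and -2.61 ± 0.56 (adjusted p = 0.0596). Klf4 and Klf10 had values between -2.26 and -0.41.

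All 6 NF-kB genes had negative tissue values in both sorts, and none passed edgeR's test. At an unadjusted p under 0.05 there were 2 in ZsGreen− and 1 in ZsGreen+ cells (17.7% and 26.4% of all genes). DESeq2 called Nfkbiz (adjusted p = 0.0315), Tnfaip3 (0.0196) and Nfkb1 (0.0453) lower in ZsGreen− cells, and Nfkbiz (0.00155) and Rel (0.0353) in ZsGreen+ cells. Nfkbia encodes IkBα, which holds NF-kB in the cytoplasm and is itself an NF-kB target. It had 125, 521, 145 and 462 CPM in Peyer's patch and 212, 6631, 501 and 3250 in spleen, and the spleen libraries of experiment 2 were far above the rest. Its values were -2.55 ± 0.99 (adjusted p = 0.32) and -2.20 ± 0.94 (adjusted p = 0.254). Tnfaip3, which encodes the ubiquitin-editing inhibitor A20, had 116, 31.7, 212 and 37.8 CPM in Peyer's patch and 383, 995, 706 and 790 in spleen. Its tissues did not overlap, and the experiments moved in opposite directions in the 2 tissues, lower in experiment 2 in Peyer's patch and higher in spleen. The fit gave -3.55 ± 1.36 (adjusted p = 0.34) and -2.84 ± 1.30 (adjusted p = 0.302). Nfkbid, Nfkbiz, Rel and Nfkb1 had values between -2.35 and -0.15.

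Of the 4 genes of mRNA decay and growth arrest, Btg2 passed edgeR's test in 1 sort, and DESeq2 also called Zfp36l1 lower in ZsGreen+ cells (adjusted p = 0.0437). Btg2, an anti-proliferative protein that recruits deadenylases, had 166, 352, 163 and 290 CPM in Peyer's patch and 190, 632, 232 and 622 in spleen. It fell by 0.79 ± 0.20 in ZsGreen+ cells (adjusted p = 0.0229) and had -0.54 ± 0.20 (adjusted p = 0.177) in ZsGreen− cells. The call was lost without Peyer's patch ZsGreen+ replicate 2 or either spleen ZsGreen+ library (highest adjusted p 0.167). Zfp36, Zfp36l1 and Btg1 had values between -1.92 and -0.42.

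In the last group Gadd45g, a stress sensor that activates a MAP kinase kinase kinase, fell in both sorts. It had 5.44, 12.4, 10 and 18.6 CPM in Peyer's patch and 13.5, 56.9, 23.9 and 39.5 in spleen. It was lower in Peyer's patch within each experiment, by 1.81 ± 0.31 (adjusted p = 0.00884) and 1.19 ± 0.29 (adjusted p = 0.0262) on the log2 scale. The first call was lost without either Peyer's patch ZsGreen− library (highest adjusted p 0.142), the second without any 1 of the 4 Peyer's patch libraries or spleen ZsGreen+ replicate 1 (highest adjusted p 0.184). Cd69, the early activation antigen that also retains lymphocytes in tissue, had 70.5, 550, 87.4 and 453 CPM in Peyer's patch and 118, 3510, 219 and 2844 in spleen. Experiment 2 was the higher in every group and spleen the higher tissue within each experiment, and Cd69 had -1.86 ± 0.67 (adjusted p = 0.264) and -1.90 ± 0.66 (adjusted p = 0.163). DESeq2 called Cd69 lower in ZsGreen+ cells (adjusted p = 0.0493). Crem, Gadd45b and Ppp1r15a had values between -1.61 and -0.74.

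The size of the tissue gap differed between the experiments. This comparison was added after the data were seen. The libraries themselves also differed between the experiments. The top 10 genes of a library took 4.61% to 7.88% of its counts in experiment 1 and 13.5% to 20% in experiment 2. TMM factors were 1.23 to 1.24 and 0.656 to 0.971, lowest in spleen ZsGreen− replicate 2. Which preparation each library had is not given. The part of these differences in the gap was not tested. The median difference within experiment 1 was -0.73 in ZsGreen− and -0.84 in ZsGreen+ cells, and within experiment 2 it was -2.19 and -1.50. It was more negative in experiment 2 in both sorts for 38 of the 46 members, against 28.1% of all genes. In a model with 1 experiment term for each tissue, the change of the gap passed for 5 members, all toward a larger deficit in experiment 2, against 0.229% of all genes in that direction and 0.236% in either. An unadjusted p under 0.05 was reached by 29 members (5.39% of all genes). The spread in that model rests on the ZsGreen− and ZsGreen+ libraries of the same tissue and experiment. Its p-values therefore do not measure how reproducible a change of the gap is.

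Those 5 were Nr4a1 (-2.0 ± 0.31, adjusted p = 0.0282), Nr4a3 (-1.84 ± 0.28, adjusted p = 0.0189), Tnfaip3 (-2.95 ± 0.42, adjusted p = 0.0472), Nfkbid (-1.99 ± 0.24, adjusted p = 0.00697) and Rel (-1.67 ± 0.20, adjusted p = 0.00697). The last 2, an atypical IkB protein and the NF-kB subunit c-Rel, were named after their values were seen. Nfkbid had 68.7, 65.2, 57.9 and 58.8 CPM in Peyer's patch and 56.1, 281, 94.9 and 289 in spleen, so that the spleen libraries of experiment 2 stood far above the others. Rel had 60.2, 13, 76.6 and 17.5 CPM in Peyer's patch and 92.9, 60.2, 145 and 111 in spleen, a drop in experiment 2 that was steeper in Peyer's patch. Nfkbid and Rel passed with any library left out. Nr4a1 and Tnfaip3 were lost without any 1 of the 4 Peyer's patch libraries, and Nr4a3 without either Peyer's patch ZsGreen− library or Peyer's patch ZsGreen+ replicate 2 (highest adjusted p 0.228, 0.236 and 0.0626). The number of calls changed with the library left out here too. The members' median change of the gap was -1.07 in the full fit. It was -1.49 without either spleen ZsGreen+ library and -0.59 without either spleen ZsGreen− library.

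**Figure D4:**
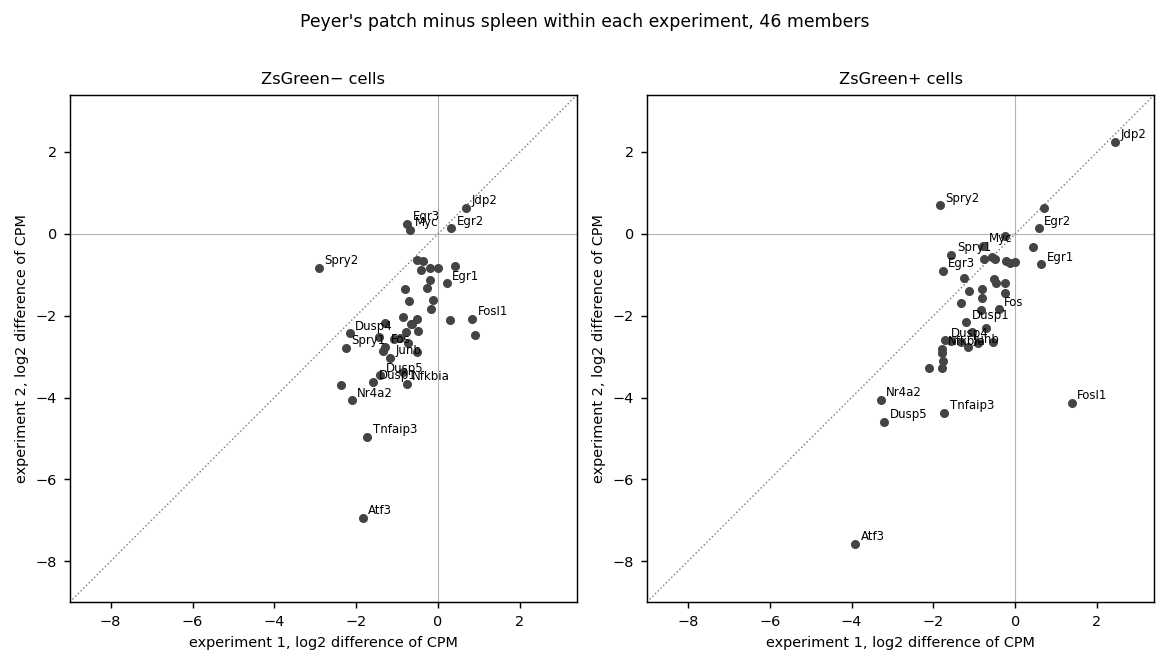
Log2 CPM difference of Peyer's patch minus spleen in experiment 1 (x axis) and experiment 2 (y axis) for each of the 46 members, in ZsGreen− cells (left) and ZsGreen+ cells (right). Points below the dotted line of equality had the larger deficit in experiment 2, as 38 members did in both sorts.

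The second comparison asked whether cells with a Th17 past differed from ZsGreen− cells of the same tissue. In Peyer's patch no member passed edgeR's test (0.437% of all genes did), and 6 had an unadjusted p under 0.05 (8.13% of all genes). The median log2 fold change was 0.05. The 6 were Nfkb1 (0.65 ± 0.16, adjusted p = 0.168), Ier5l (0.78 ± 0.32), Gadd45g (0.73 ± 0.31) and Dusp4 (0.51 ± 0.22), which were positive, and Myc (-0.57 ± 0.20) and Btg1 (-0.60 ± 0.26), which were negative. With DESeq2, 1 member was called in Peyer's patch, Nfkb1 at 0.64 (adjusted p = 0.0232), with 296 and 83.9 CPM in ZsGreen− and 385 and 160 in ZsGreen+ cells. Nfkb1 encodes the p105 precursor of the NF-kB subunit p50.

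In spleen Jdp2 and Spry1 fell in ZsGreen+ cells by edgeR's test and no member rose, against 4.09% of all genes lower, 4.53% higher and 8.62% in either direction. An unadjusted p under 0.05 was reached by 6 members, against 21.9% of all genes. Jdp2 had 16.3 and 24.5 CPM in ZsGreen− and 5.38 and 7.11 in ZsGreen+ cells, a fall of 1.69 ± 0.19 on the log2 scale (adjusted p = 0.000383) that passed with any library left out. Spry1 had 73.4 and 94.4 against 39.6 and 20.1 CPM, a fall of 1.51 ± 0.28 (adjusted p = 0.0154), lost without either Peyer's patch ZsGreen− library (highest adjusted p 0.0536). For both genes the ZsGreen+ libraries lay below the ZsGreen− libraries. Egr3 had 0.95 ± 0.28 (adjusted p = 0.0925), which DESeq2 called higher at 1.04 (adjusted p = 0.0139), and Fosl2 0.76 ± 0.35 (adjusted p = 0.224). With 1 experiment term for each tissue, an alternative chosen after the data were seen, 7 members passed. Egr3, Dusp5, Nfkbiz and Rel rose and Jdp2, Dusp2 and Spry1 fell. Of all 14418 genes, 694 rose and 604 fell in that model.

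Many of the members changed sides between the experiments, and others kept theirs. In spleen, ZsGreen+ minus ZsGreen− had a median of 0.32 in experiment 1, with 35 of 46 positive, and of -0.52 in experiment 2, with 34 negative. It was positive in experiment 1 and negative in experiment 2 for 24 members, against 16% of all genes. Nfkbia shows this: it went from 212 to 501 CPM in experiment 1 and from 6631 to 3250 in experiment 2, with a fitted -0.27 ± 0.92 (adjusted p = 0.907). Without spleen ZsGreen− replicate 2 Nfkbia passed at 1.53 (adjusted p = 0.0174), and without replicate 1 of that group it passed at -1.27 (adjusted p = 0.0154). Dusp1 went from 388 to 460 and from 4535 to 1307 CPM, and Zfp36, a destabiliser of short-lived mRNAs, from 483 to 539 and from 4150 to 1174. The median over all members was 0.47 without spleen ZsGreen− replicate 2 and -0.60 without replicate 1. Over all genes these medians were -0.02 and -0.01. The number of calls in the spleen also changed with the library left out.

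**Figure D5:**
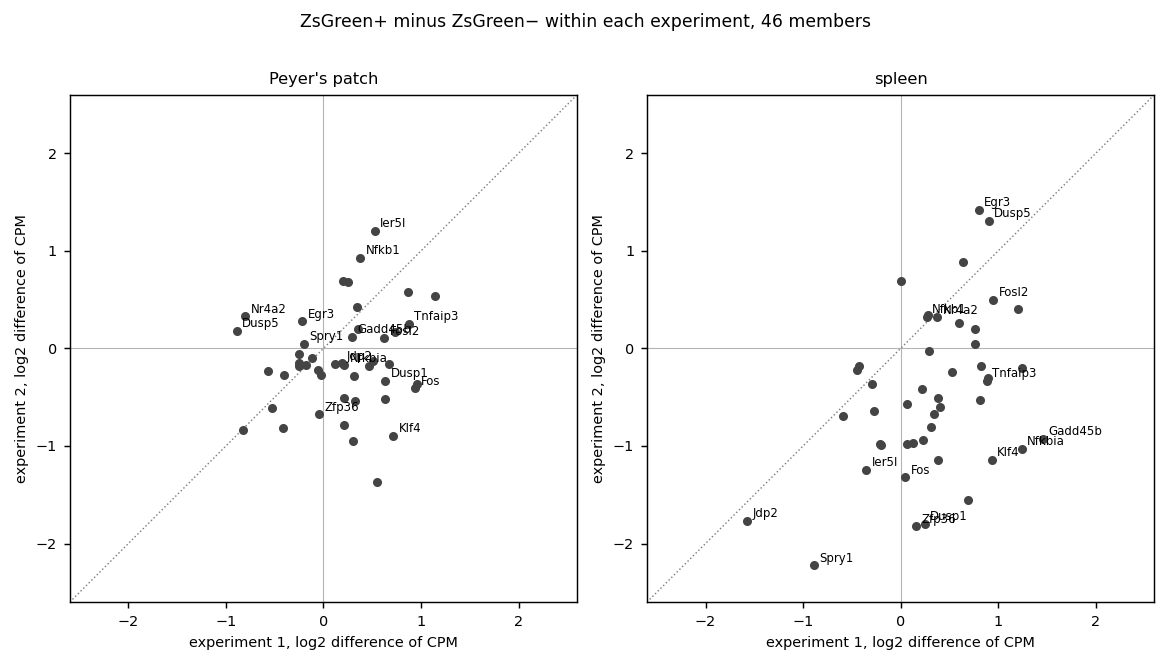
Log2 CPM difference of ZsGreen+ minus ZsGreen− cells in experiment 1 (x axis) and experiment 2 (y axis) for the 46 members, in Peyer's patch (left) and spleen (right). In spleen 24 members lie in the lower right quadrant, positive in experiment 1 and negative in experiment 2, and Jdp2 and Spry1 lie in the lower left quadrant.

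The third comparison tested whether the ZsGreen difference itself differed between tissues. It did for Jdp2, against 0.0277% of all genes in that direction and 0.0971% in either. An unadjusted p under 0.05 was reached by 3 members (8.48% of all genes). Jdp2 was near equal between sorts in Peyer's patch (0.02 ± 0.17) and lower in ZsGreen+ cells of spleen, a difference of 1.71 ± 0.26 (adjusted p = 0.0338). The call passed without Peyer's patch ZsGreen+ replicate 2 or spleen ZsGreen− replicate 1 and was lost without any other 1 library (highest adjusted p 0.277). Spry1 had 1.43 ± 0.41 (adjusted p = 0.337) and Ier5l 1.61 ± 0.46 (adjusted p = 0.312). Which members passed changed with the library left out. The members' median then lay between -0.49 (without spleen ZsGreen− replicate 2) and 0.63 (without replicate 1 of that group). Spry1 moved to 2.01 without spleen ZsGreen+ replicate 1.

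Other genes of the same pathways were counted by lists, to be read against the shares of all genes that fell (3.68% in ZsGreen− and 7.17% in ZsGreen+ cells) or rose (1.82% and 5.51%) in Peyer's patch. Of 30 other activation-induced genes tested, 5 fell in Peyer's patch in ZsGreen− cells, with a median of -0.83. In ZsGreen+ cells 10 fell and 1 rose, with a median of -1.37. Those with the smallest p in ZsGreen+ cells were Tnfrsf9, which encodes the costimulator 4-1BB (-1.62), the transcriptional inhibitor Id2 (-2.41), the cytokine gene Tnf (-1.82) and Il2ra (-2.27), which encodes CD25. In the spleen 5 of the 30 rose in ZsGreen+ cells and Irf8 fell, against 4.53% and 4.09% of all genes.

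Of 16 other NF-kB genes, Bcl2a1d rose in Peyer's patch in ZsGreen− cells, and Nfkb2, Nfkbib, Traf1 and Birc3 fell in ZsGreen+ cells, with medians of -0.05 and -0.15. Of 19 other MAP kinase and calcium feedback genes none passed in ZsGreen− cells by edgeR's test, with a median of -0.43. At an unadjusted p under 0.05, 9 were lower and 2 higher (17.7% of all genes in either direction). In ZsGreen+ cells Rgs1, Dusp3 and Dusp14 fell and Ptpn22 rose, with a median of 0.05. Of 18 other leucine zipper genes 2 fell in ZsGreen− cells (Bach2 and Atf4), and 5 fell and 1 rose in ZsGreen+ cells, with medians of -0.18 and -0.36.

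Heat shock and dissociation stress genes moved with the tissue difference. Of 16 tested, 15 were negative in ZsGreen− and 16 in ZsGreen+ cells, with medians of -0.60 and -0.56, and 2 and 3 fell. Their summed level was 3597 to 5233 CPM in Peyer's patch and 4911 to 12673 in spleen, highest in spleen ZsGreen− replicate 2. Hspa1a, an inducible HSP70 gene, had 43.7 to 68 CPM in Peyer's patch and 195 to 682 in spleen. The part of these genes in the result was not tested.

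Markers of other cell types and of Tfh identity were counted in the same way. Of 12 tested B cell markers, 1 rose in Peyer's patch in ZsGreen− cells, and 5 rose and 1 fell in ZsGreen+ cells. Their summed level was 364 to 689 CPM in Peyer's patch and 147 to 736 in spleen, highest in spleen ZsGreen− replicate 2. Of 12 genes of T cell and Tfh identity, Cxcr5 rose in both sorts (1.08 and 2.47), and Bcl6 (1.49), Tox2 (1.02) and Icos (0.82) rose in ZsGreen+ cells. The CD8 T and NK marker Klrb1c rose in both (1.69 and 1.40) and Klrk1 fell in ZsGreen− cells (-3.54). Of 7 plasma cell markers tested, Prdm1, which activated T cells also express, fell in both sorts (-3.29 and -2.63). The list as a whole went the other way, with medians of 1.49 in ZsGreen− and 0.60 in ZsGreen+ cells. In each sort 4 of the 7 were positive and 3 negative. Their summed level was 195 to 362 CPM in Peyer's patch and 88.4 to 288 in spleen. Most of the spleen sums was Xbp1, also listed as a leucine zipper gene, with 71 to 181 CPM in Peyer's patch and 70.6 to 269 in spleen. Igha had 26.8 to 244 CPM in Peyer's patch and 0.153 to 7.72 in spleen, and Jchain 9.19 to 37.3 and 1.6 to 9.74. Of 8 myeloid markers Lyz2 (1.89) and Cd68 (1.77) rose and Itgam (-3.25) fell in ZsGreen+ cells, with a summed level of 31.4 to 41.7 CPM in Peyer's patch and 10.8 to 26.5 in spleen. None of the epithelial, stromal or erythroid markers tested passed edgeR's test in either tissue comparison. At an unadjusted p under 0.05, 3 of 4 epithelial markers were higher in Peyer's patch in ZsGreen− and 2 in ZsGreen+ cells (17.7% and 26.4% of all genes). Medians of the 4 were 4.45 and 3.51. The epithelial markers summed to only 7.57 to 16.5 CPM in Peyer's patch and 2.25 to 9.26 in spleen. The change of the tissue gap between experiments passed for 1 of 4 stromal and erythroid markers, toward lower values in Peyer's patch in experiment 2. The part of these genes in the result was not tested.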

How the data were processed

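The raw tables hold estimated counts per gene, as deposited by the authors, that need not be whole. The authors' normalized signal tables are these counts times 1 factor per library (0.765 to 1.58). Per the submitters' processing notes, Partek, STAR, DESeq2 and build mm39 were used. Their versions are absent from the sources at hand. Estimated counts of 16735 genes in both tables were rounded and fitted with edgeR 4.0.16 in R 4.3.3: filterByExpr (minimum count 10, total 15), TMM factors (0.656 to 1.24), robust quasi-likelihood F tests, 4 group means plus the experiment, 3 residual degrees of freedom, Benjamini-Hochberg over 14418 genes, threshold 0.05. The labels tie each replicate number to 1 experiment, and deviations from group means correlated at 0.825 to 0.867 across genes over 6 group pairs. Log2 CPM has a prior count of 2. The script was tested on simulated data. DESeq2 1.42.0 was an alternative. By the naming rule, members past the threshold and 18 fixed genes have full values. Members and lists were chosen with earlier results of these data known. Exon lengths come from GENCODE M21. One marker gene is not reported here.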

Additional observations from a re-analysis of the deposited data

Results flagged for a closer look

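Jdp2 stood out because its ZsGreen difference was not the same in both tissues by a test of the difference itself: 1.71 on the log2 scale (edgeR adjusted p = 0.0338). It was lower in ZsGreen+ than in ZsGreen− spleen libraries in both experiments, and near equal in Peyer's patch. DESeq2 gave 1.67 (adjusted p = 0.00011), and with any 1 library left out the highest adjusted p was 0.277.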

How the results depend on the processing

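With no replicate block, 0 members passed in Peyer's patch sort, spleen sort, both tissue comparisons and the difference of the sort contrast between tissues (main counts 0, 2, 7, 11 and 1), and 0 of all genes passed. Unadjusted p under 0.05 was then reached by 0, 2, 10, 9 and 1 members. DESeq2 with the replicate block called 1 in the Peyer's patch sort, 3 in the spleen sort, 21 in ZsGreen− tissue, 19 in ZsGreen+ tissue and 12 for the change of the tissue gap between experiments (main 0, 2, 7, 11 and 5). Over all genes DESeq2 called 1466 in the spleen sort, 1085 in ZsGreen− and 2099 in ZsGreen+ tissue, against 1243, 792 and 1828 in the main analysis. It called 139 in the Peyer's patch sort, 143 for the difference between tissues and 76 for the change of the gap, against 63, 14 and 34. With no filter the last 2 were 47 and 58, with the stricter filter the Peyer's patch sort had 38, and with 1 experiment term for each tissue the difference between tissues had 38. That model called 7 members and 1298 of all genes in the spleen sort. Leaving out 1 library gave 0 to 0, 1 to 10, 2 to 26, 6 to 24, 0 to 4 and 2 to 21 calls for the Peyer's patch sort, spleen sort, ZsGreen− tissue, ZsGreen+ tissue, difference between tissues and change of the gap. Where 1 library was left out, its group's other library was assumed to vary like the rest. These ranges count members only and are not set against calls over all genes. They therefore do not show whether the members' calls changed more than those of other genes. Nfkbia changed sign in the spleen sort, to 1.53 without spleen ZsGreen− replicate 2 (main -0.27), against -1.27 without replicate 1 of that group. The members' median in the spleen sort changed sign too, from -0.20 in the main fit to 0.47 without spleen ZsGreen− replicate 2. DESeq2 size factors in edgeR, the authors' library factors, no filter and a stricter filter kept each member count within 1.5 times. The causes were not tested. Depth limits Atf3, Fosl1 and Spry2, which had few or no counts in Peyer's patch.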
